A study of Mus musculus with 6 samples.

Results

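The genes of glycolysis and of the response to low oxygen were examined on 6 lung arrays of male FVB pups, taken at postnatal day 6. The group was defined by name as 35 genes: the main glucose transporter, the enzymes that take glucose to lactate, the hypoxia-inducible factors with their oxygen sensors, and genes known to rise in low oxygen. Every probe of the array carrying one of these symbols was taken. The array held 46 probes for 32 of the 35 genes, out of 25697 probes for 18138 symbols, and 37 probes of 28 genes were bright enough to be tested. Hk2, Gpi1 and Ldhb had no probe under these symbols and were not analysed here.

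The study compared hSRY-ON with hSRY-OFF mice to ask how the human sex-determining gene, switched on throughout the body, alters gene expression in the lung. All mice of the Signalox-hSRY line carry a single transgene at the H11 site of mouse chromosome 11, driven by the CAG promoter, which is active in nearly all tissues. Unrecombined, the transgene makes the red fluorescent protein DsRed2, and such animals are named hSRY-OFF (3 mice). In hSRY-ON animals (3 mice), Cre recombinase carried over in the oocytes of Ddx4-Cre mothers had removed DsRed2 in the fertilised egg, so that FLAG-tagged human SRY and EGFP were made instead, and the animals chosen did not inherit the Ddx4-Cre transgene. Elsewhere the study speaks of control pups, by which its methods mean littermates lacking Signalox-hSRY, so the genotype of the hSRY-OFF animals is taken from their label alone. The line has 1 insertion site, and the whole lung was used as a mixture of cell types, in which fewer cells of a type and less RNA per cell cannot be told apart. The study reports that hSRY-ON pups suckled little, lacked milk in the stomach and grew more slowly. Their lungs at birth had thicker septa and smaller air sacs. Effects of feeding, growth and lung structure cannot be told apart here from those of the transgene.

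Each mouse gave 1 Illumina MouseRef-8 BeadChip, and values are normalized log2 intensities. Between 13191 and 14134 probes were detected per array. Arrays correlated at 0.991 to 0.993 within hSRY-OFF, at 0.972 to 0.980 within hSRY-ON and at 0.935 to 0.959 between the groups. All 10 lung epithelial markers examined, Sftpc, Scgb1a1 and Nkx2-1 among them, were detected on all 6 arrays. Several marker lists moved with the groups. Their summed linear intensity ranged from 3296 to 3576 in hSRY-OFF and from 6358 to 11411 in hSRY-ON for macrophages (Msr1, Itgax and Fabp4 detected on no array), from 7877 to 8159 and from 15680 to 43895 for neutrophils (Cxcr2 on none), from 64737 to 68673 and from 48162 to 55287 for endothelium (Kdr on none), and from 15886 to 19885 and from 5493 to 11157 for proliferation (Ccnb2, Ccna2 and Bub1 on none). Of the tested probes of these lists, 5 of 10 macrophage and 4 of 7 neutrophil probes were higher in hSRY-ON, 4 of 13 endothelial probes were lower and 1 higher, and 21 of 25 proliferation probes were lower. Not all neutrophil genes followed their sum. In hSRY-ON replicate 1, Ngp and Camp read 6.19 and 6.70, against 7.18 to 7.61 and 7.10 to 7.81 in hSRY-OFF. Neither gene was called. The epithelial sums were from 113550 to 116594 in hSRY-OFF and from 120992 to 131225 in hSRY-ON, with 4 of 13 probes higher. Of all tested probes of the array, 13.6% were higher and 13.3% lower by the same test, which is described below. The part that these marker differences had in the values below was not tested.

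Glycolysis splits glucose into pyruvate in the cytoplasm and yields ATP without oxygen, with lactate as the product when pyruvate does not enter the mitochondria. Its enzymes and the glucose transporters are classical targets of the hypoxia-inducible factors (HIF), which pair an oxygen-labile alpha subunit, Hif1a or Epas1, with the stable partner Arnt. When oxygen is plentiful, the prolyl hydroxylases encoded by Egln1 and Egln3 mark the alpha subunits for destruction through the von Hippel-Lindau protein, so HIF activity is set largely at the protein level. Before birth the lung grows in low oxygen, and Epas1 is known for its high expression in lung endothelium and for its need in alveolar type II cell maturation.

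HIF binds the letters ACGTG or GCGTG, the core of the hypoxia response element. The 250 bases before the annotated start of the 4 members that changed and have a single RefSeq promoter window are shown here with each match on either strand in capitals (CACGT and CACGC are the same letters read on the other strand, and CACGTG holds a match on each). Sequences are from RefSeq on GRCm38.p6 and run 5′ to 3′ on the strand of the gene.
Slc2a1 (chr4:119108495-119108744, plus strand): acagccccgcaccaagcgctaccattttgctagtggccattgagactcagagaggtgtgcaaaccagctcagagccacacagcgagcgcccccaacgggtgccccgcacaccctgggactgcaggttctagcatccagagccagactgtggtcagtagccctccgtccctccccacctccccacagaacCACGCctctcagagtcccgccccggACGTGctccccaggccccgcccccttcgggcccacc
P4ha2 (chr11:54100674-54100923, plus strand): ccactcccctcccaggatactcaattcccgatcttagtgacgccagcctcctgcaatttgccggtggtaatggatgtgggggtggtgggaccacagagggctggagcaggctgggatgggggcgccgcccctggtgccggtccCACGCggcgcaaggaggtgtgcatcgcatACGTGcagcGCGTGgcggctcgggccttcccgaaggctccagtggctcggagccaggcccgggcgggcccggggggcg
Gapdh (chr6:125165774-125166023, minus strand): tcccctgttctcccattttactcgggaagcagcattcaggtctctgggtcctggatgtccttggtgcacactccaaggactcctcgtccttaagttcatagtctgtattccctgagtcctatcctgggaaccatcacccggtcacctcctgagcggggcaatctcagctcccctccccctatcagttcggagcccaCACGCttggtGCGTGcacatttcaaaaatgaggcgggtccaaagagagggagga
Hif1a (chr12:73907617-73907866, plus strand): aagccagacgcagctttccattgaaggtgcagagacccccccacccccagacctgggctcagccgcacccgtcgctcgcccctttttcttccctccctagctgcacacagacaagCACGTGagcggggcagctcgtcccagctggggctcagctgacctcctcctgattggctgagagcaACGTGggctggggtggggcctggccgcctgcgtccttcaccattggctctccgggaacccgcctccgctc
Slc2a1 and Gapdh hold 2 matches each, P4ha2 and Hif1a 3 each, and the match nearest the start lies 32, 40, 65 and 66 bases before it in Slc2a1, Gapdh, P4ha2 and Hif1a. RefSeq windows were found for 32 of the 35 members, and Epas1, Bnip3l and Ndrg1 had none. Of the 45 member windows 38 (84.4%) held the motif, against 38.6% of all 32851 windows in the table and 53.5% of the 8496 windows of genes with a tested probe. The median GC content of these windows was 61.6%, 52.4% and 59.6%, and the motif itself is rich in G and C. The members were chosen by name and include known HIF targets, so these shares are not from like sets. Members were also matched through gene synonyms and include untested genes, whereas the windows of tested genes were matched by symbol alone. At least 1 match was held by 30 of the 32 members with a window, the 7 called members among them. A match in these letters is a description of the sequence and does not show that a factor binds there.

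Over the whole group, 6 of the 37 tested probes rose in hSRY-ON and 1 fell (limma, Benjamini-Hochberg adjusted p under 0.05 over all 13841 tested probes). The rises were in Slc2a1, Aldoa, Aldoc, Gapdh, Pfkfb3 and P4ha2, and the fall in Hif1a. The 7 calls are 18.9% of the tested member probes, where 26.9% of all tested probes were called, 13.6% higher and 13.3% lower, so the share called was no larger among these genes than over the array. The median change of the 37 probes was 0.07 on the log2 scale, beside -0.03 over all tested probes, with 22 changes above 0 and 15 below. The values of the groups did not overlap for 10 probes, 9 higher and 1 lower in hSRY-ON (27.0%, beside 46.6% of all tested probes, 22.4% higher and 24.1% lower). Without hSRY-OFF replicate 1 only the calls of Slc2a1 and Hif1a were left, and without hSRY-OFF replicate 2, hSRY-OFF replicate 3 or hSRY-ON replicate 2 there were 4 member calls each, while calls over the whole array fell to 1504, 1621, 2103 and 2393.

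**Figure D1:**
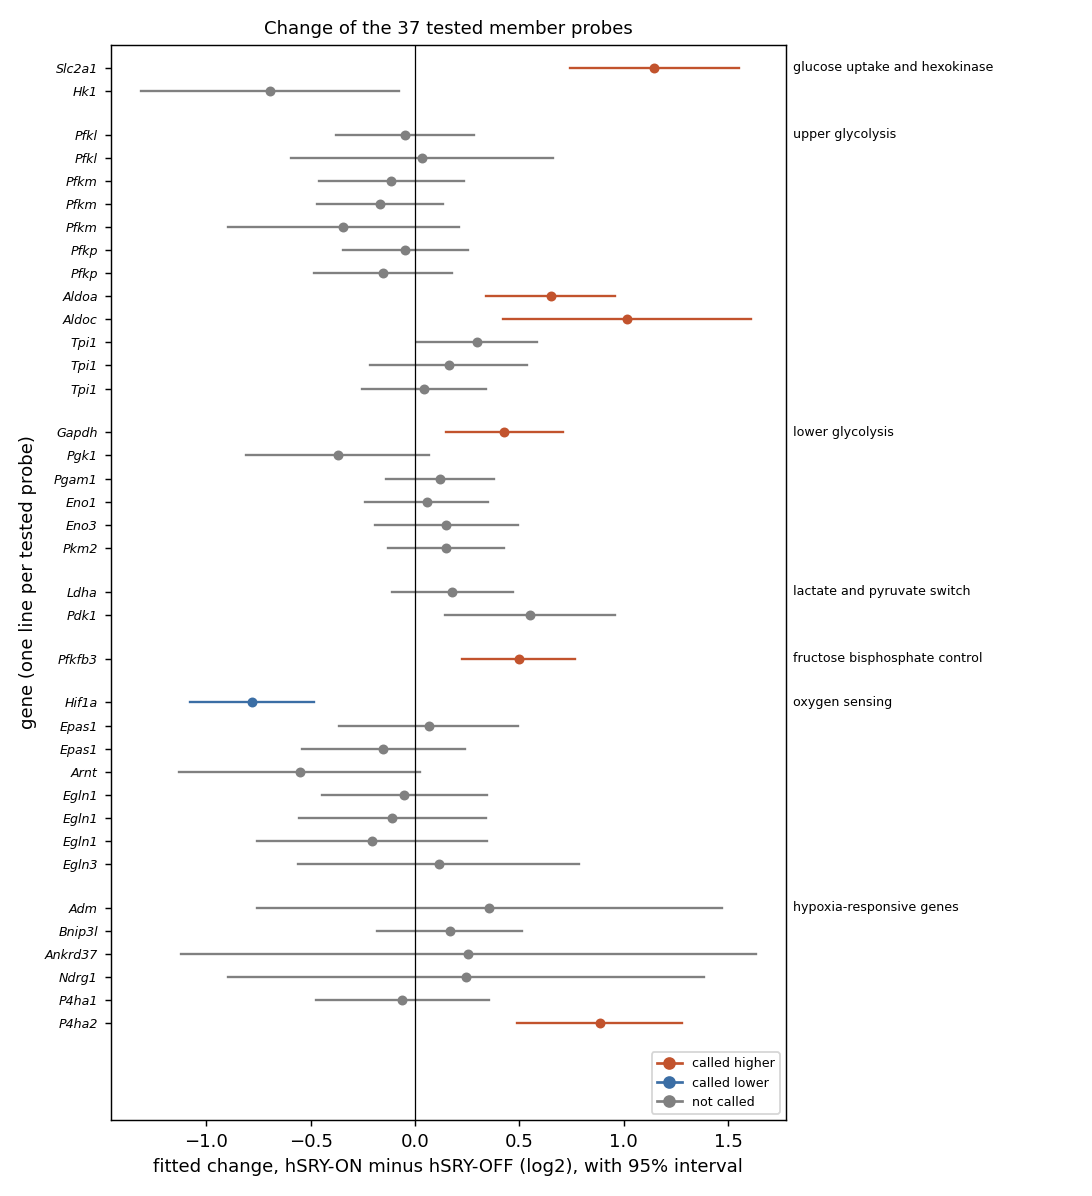
Fitted change of each of the 37 tested member probes, hSRY-ON minus hSRY-OFF on the log2 scale, with its 95% interval (limma, n = 3 arrays per group), 1 line per probe and grouped by role. The 6 called rises are spread over transport, the aldolases, Gapdh, Pfkfb3 and P4ha2, and most enzyme probes lie close to 0 with intervals that include it.

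Glucose uptake gave the highest rise of the group. Slc2a1 (probe ILMN_1258159), the GLUT1 glucose transporter of most growing cells, read 8.54, 8.48 and 8.73 in hSRY-OFF replicates 1 to 3 and 9.57, 10.07 and 9.56 in hSRY-ON replicates 1 to 3. The groups were apart on all arrays, and the change of 1.15 (SE 0.17, 2.21-fold, adjusted p = 0.00508) passed the threshold in all 15 alternative settings. Its promoter, printed above, holds a match on each strand. Hk1, the hexokinase that traps glucose in most tissues, read 6.26, 6.32 and 5.81 in hSRY-OFF and 5.97, 5.03 and 5.30 in hSRY-ON, where it was detected on 1 array. Its change of -0.69 (95% interval -1.31 to -0.08, adjusted p = 0.0901) did not pass, and hSRY-ON replicate 1 overlapped hSRY-OFF. Leaving out hSRY-ON replicate 1 brought Hk1 past the threshold at -0.98 (adjusted p = 0.0141), as did array weights at -0.82 (adjusted p = 0.0416).

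In upper glycolysis the aldolases rose while the phosphofructokinases gave no call, with 2 of 12 tested probes called (16.7%, beside 26.9% over the array). Aldoa (ILMN_2599130), the muscle-type aldolase found in most tissues, read 10.95, 11.11 and 10.93 in hSRY-OFF and 11.82, 11.61 and 11.50 in hSRY-ON, a rise of 0.65 (SE 0.13, 1.57-fold, adjusted p = 0.0131). Aldoc (ILMN_3160137), the aldolase best known from brain, read 7.24, 6.71 and 7.43 against 8.49, 8.21 and 7.74, a rise of 1.02 (SE 0.25, 2.02-fold, adjusted p = 0.0258). Neither aldolase had overlapping groups, though the lowest hSRY-ON value of Aldoc, in replicate 3, came near the highest of hSRY-OFF. The rate-setting phosphofructokinases were measured by 7 tested probes, 2 for the liver form Pfkl, 3 for the muscle form Pfkm and 2 for the platelet form Pfkp. Their changes ran from -0.34 to 0.03, none was called, and the intervals of the brightest probe of each form were -0.38 to 0.28 for Pfkl, -0.46 to 0.23 for Pfkm and -0.34 to 0.25 for Pfkp. Without hSRY-ON replicate 3 the dimmest Pfkm probe passed at -0.62 (adjusted p = 0.0171). A further Pfkp probe was detected on no array. Tpi1, triose phosphate isomerase, had 3 tested probes with changes of 0.30, 0.16 and 0.04. The brightest of them did not overlap between groups (12.10, 12.00 and 12.18 against 12.46, 12.25 and 12.46) but missed the threshold (adjusted p = 0.112). The call of Aldoa was lost without hSRY-OFF replicate 1 (adjusted p = 0.0616) or replicate 3 (adjusted p = 0.0513), and that of Aldoc without hSRY-OFF replicate 1 (adjusted p = 0.0708), hSRY-OFF replicate 2 (adjusted p = 0.0824) or hSRY-ON replicate 2 (adjusted p = 0.0756), with the changes between 0.62 and 1.08.

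Of the 6 enzymes of lower glycolysis only Gapdh was called (16.7% of their tested probes, beside 26.9% over the array). Gapdh (ILMN_1377924), the dehydrogenase often used as a reference gene, read 12.40, 12.23 and 12.41 in hSRY-OFF and 12.67, 12.80 and 12.86 in hSRY-ON, a rise of 0.43 (SE 0.12, 1.35-fold, adjusted p = 0.0372). Pgam1, phosphoglycerate mutase, read 9.29, 9.22 and 9.39 against 9.41, 9.41 and 9.43, apart on all arrays but by so little that the change of 0.12 was not called (adjusted p = 0.441). Eno1, the widespread enolase, changed by 0.06 (95% interval -0.24 to 0.35), Eno3, the muscle enolase, by 0.15 (-0.19 to 0.49) and Pkm2, pyruvate kinase, by 0.15 (-0.13 to 0.43). A change within these intervals could not be told from none with 3 mice per group. Pgk1, phosphoglycerate kinase, was measured by a probe near background that read 5.86, 5.99 and 6.10 in hSRY-OFF and 5.28, 5.61 and 5.96 in hSRY-ON. Its change of -0.37 (adjusted p = 0.18) was not called, and passed at -0.54 without hSRY-ON replicate 3 (adjusted p = 0.0462). Gapdh and other glycolytic genes have near-identical pseudogene copies, so a probe may bind more than 1 transcript. The call of Gapdh was lost on leaving out any array other than hSRY-ON replicate 1, with adjusted p from 0.0693 to 0.135 and changes from 0.37 to 0.46.

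The switch between lactate and mitochondrial pyruvate showed no member call. Ldha, the lactate dehydrogenase subunit that favours lactate production, read 13.40, 13.23 and 13.35 in hSRY-OFF and 13.35, 13.60 and 13.56 in hSRY-ON. The groups overlapped, and the change of 0.18 (95% interval -0.11 to 0.47, adjusted p = 0.316) was not called. Pdk1, the kinase that shuts the pyruvate dehydrogenase complex in low oxygen, read 7.0, 7.52 and 7.37 against 8.02, 7.86 and 7.66. These groups were apart, and the change of 0.55 (SE 0.17, adjusted p = 0.0538) fell just outside the threshold, inside which it came in 5 of 15 alternative settings, among them the one without hSRY-ON replicate 3 (adjusted p = 0.0464). Pfkfb3 (ILMN_2860174) makes fructose 2,6-bisphosphate, the activator of phosphofructokinase. It was detected on no hSRY-OFF array (4.94, 5.08 and 5.14) and on all hSRY-ON arrays (5.53, 5.62 and 5.51), at least 1.20-fold higher in hSRY-ON (limma adjusted p = 0.0204). Such values lie at the edge of detection, where the lowest detected value of an array was 5.22 to 5.46, and the call of Pfkfb3 held in 4 of the 11 alternative settings that tested it. It was lost without hSRY-OFF replicate 1 (adjusted p = 0.0968), replicate 2 (adjusted p = 0.0733) or replicate 3 (adjusted p = 0.0527).

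**Figure D2:**
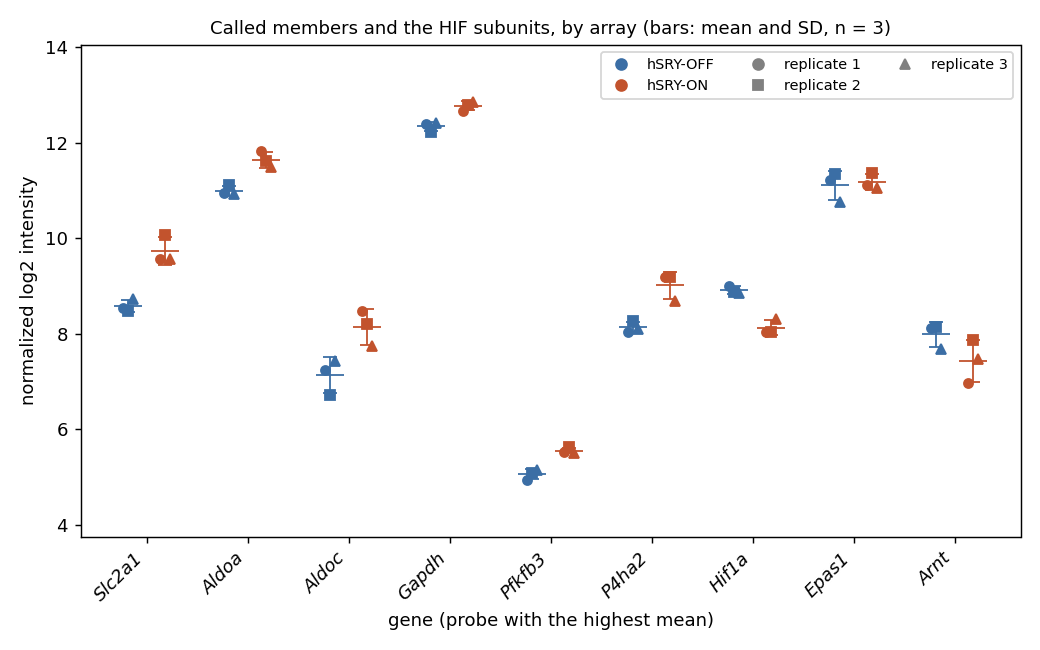
Normalized log2 intensity on each of the 6 arrays for the 7 called members and the HIF subunits Epas1 and Arnt (circles, squares and triangles are replicates 1, 2 and 3, and bars the mean and SD of 3 arrays). Slc2a1, the aldolases, Gapdh, Pfkfb3 and P4ha2 lie higher and Hif1a lower on every hSRY-ON array than on any hSRY-OFF array, and Epas1 overlaps. Heights are not comparable between genes, since probes differ in brightness.

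Among the member oxygen sensors and HIF subunits, Hif1a fell and no other member was called (1 of 8 tested probes, 12.5%, beside 26.9% over the array). Hif1a (ILMN_2852034), the alpha subunit active in most cells, read 9.01, 8.88 and 8.85 in hSRY-OFF and 8.04, 8.05 and 8.30 in hSRY-ON. All 3 hSRY-ON arrays were lower than all hSRY-OFF arrays, a fall with a log2 change of -0.78 (SE 0.13, 0.582-fold, adjusted p = 0.00649) that passed in all 15 alternative settings. Epas1, which encodes the alpha subunit HIF-2, had 2 probes. The brighter one read 11.22, 11.34 and 10.76 against 11.11, 11.36 and 11.05, and the other 8.86, 8.93 and 8.38 against 8.57, 8.59 and 8.56. Both overlapped between groups, with changes of 0.07 (95% interval -0.36 to 0.49) and -0.15 (-0.54 to 0.24). Arnt, the shared partner, read 8.12, 8.15 and 7.69 against 6.97, 7.86 and 7.47, and its change of -0.55 (SE 0.25, adjusted p = 0.137) was not called, with hSRY-ON replicate 2 inside the hSRY-OFF range. A second Arnt probe was detected on no array. The prolyl hydroxylase Egln1 had 3 tested probes with changes of -0.05, -0.11 and -0.21, and Egln3, a hydroxylase that is itself raised by HIF, 1 tested probe with a change of 0.11. None of these was called. The endothelial sum given above was lower in hSRY-ON, and its part in the values of these genes was not tested.

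For the member genes known to rise in low oxygen, 1 of 6 tested probes was called (16.7%, beside 26.9% over the array). P4ha2 (ILMN_2789562), a catalytic subunit of the prolyl hydroxylase that stabilises collagen, read 8.04, 8.27 and 8.09 in hSRY-OFF and 9.18, 9.18 and 8.69 in hSRY-ON. The groups were apart and the rise was 0.88 (SE 0.17, 1.85-fold, adjusted p = 0.0107), held in 14 of 15 alternative settings and lost without hSRY-OFF replicate 1 (adjusted p = 0.0507). P4ha1, its paralog and the classical HIF target of the pair, read 6.78, 6.60 and 6.29 against 6.62, 6.62 and 6.25, a change of -0.06 (95% interval -0.47 to 0.35). Bnip3l, a mitophagy receptor also needed for red cell maturation, read 12.28, 12.11 and 12.31 against 12.57, 12.48 and 12.15, a change of 0.17 (-0.18 to 0.51). Neither was called.

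Adm, Ankrd37 and Ndrg1, which respond strongly to HIF in many cells, differed more among the hSRY-ON mice than between the groups. Adm, the vasodilator peptide adrenomedullin, read 5.18, 5.21 and 6.05 in hSRY-OFF and 6.64, 6.08 and 4.80 in hSRY-ON. Ankrd37 read 6.58, 5.96 and 6.42 against 7.89, 6.52 and 5.32, and was detected on all hSRY-OFF and on 2 hSRY-ON arrays. Ndrg1, a stress-induced gene of differentiating epithelium and myelinating cells, read 6.80, 6.95 and 6.91 against 8.22, 7.13 and 6.04. In each of the 3 genes hSRY-ON replicate 1 was the highest of all 6 arrays and hSRY-ON replicate 3 the lowest, for Adm and Ankrd37 at or below the edge of detection. Egln3 showed the same order, with 6.04, 5.91 and 6.34 against 6.86, 6.0 and 5.77. Their group changes of 0.36, 0.26, 0.25 and 0.11 were all far from the threshold (adjusted p from 0.604 to 0.792), and those of Ankrd37, Ndrg1 and Egln3 changed sign, to -0.41, -0.30 and -0.22, without hSRY-ON replicate 1.

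**Figure D3:**
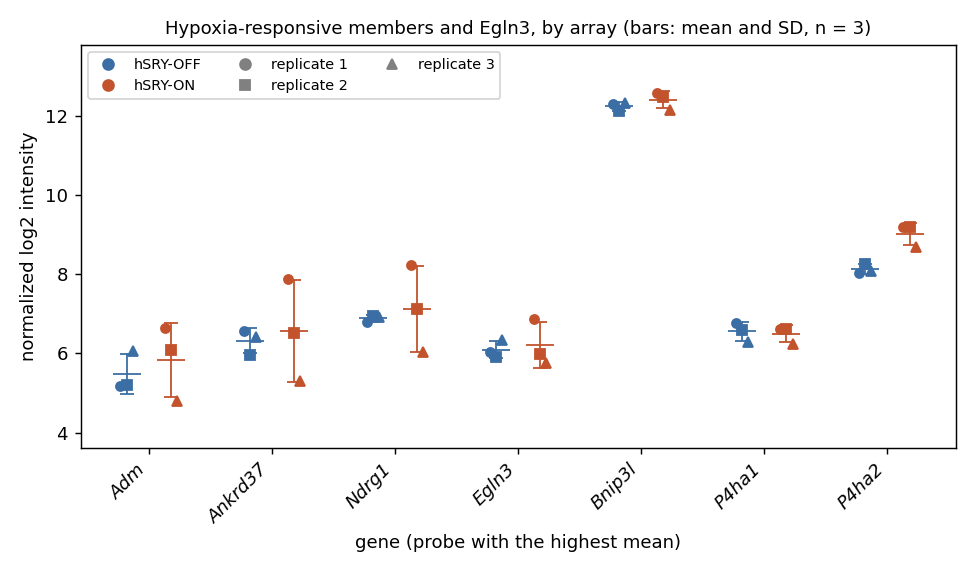
Normalized log2 intensity on each array for the 6 tested hypoxia-responsive members and Egln3 (circles, squares and triangles are replicates 1, 2 and 3, and bars the mean and SD of 3 arrays). In Adm, Ankrd37, Ndrg1 and Egln3 the 3 hSRY-ON arrays spread around the hSRY-OFF arrays, replicate 1 on top and replicate 3 at the bottom, while P4ha2 separates the groups.

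The median SD of the 6 tested hypoxia-responsive probes was 0.61 in hSRY-ON and 0.18 in hSRY-OFF, beside 0.22 and 0.13 over all tested probes of the array. The SD in hSRY-ON was 0.94, 1.29 and 1.09 for Adm, Ankrd37 and Ndrg1, but 0.21, 0.28 and 0.22 for P4ha1, P4ha2 and Bnip3l. For the 33 tested probes of other hypoxia-responsive genes, described below, the median SD was 0.27 in hSRY-ON and 0.11 in hSRY-OFF. Among these 6 probes hSRY-ON replicate 1 was the highest of its group in 5 and replicate 3 the lowest in 6. Over all 37 member probes no such order held, with replicates 1, 2 and 3 highest in 11, 14 and 12 and lowest in 16, 5 and 16. Summed marker intensities of the 3 hSRY-ON arrays, in the order of their numbers, were 8830, 7838 and 4081 for cardiac muscle (6343 to 8364 in hSRY-OFF, Ryr2 detected on no array), 66466, 61073 and 58895 for erythroid cells (58407 to 66669 in hSRY-OFF, Epb42 and Hemgn on none), 131225, 129412 and 120992 for lung epithelium, 55287, 53014 and 48162 for endothelium, 15680, 19275 and 43895 for neutrophils and 5493, 5620 and 11157 for proliferation. The cardiac, erythroid, epithelial and endothelial sums were highest in replicate 1 and lowest in replicate 3, and the neutrophil and proliferation sums the reverse. The macrophage sums, 6358, 11411 and 7061, and the skeletal muscle sums, 534, 526 and 612 (Pvalb on none), followed neither order. Single markers did not all follow their sum (the cardiac gene Myl4 read 10.49, 9.94 and 11.12). The cardiac sum joined opposite changes. Nppa rose from 5.11, 5.33 and 6.94 in hSRY-OFF to 12.32, 12.39 and 9.31 in hSRY-ON (46.8-fold, limma adjusted p = 0.00611). Myl4 fell from 12.24, 12.48 and 12.64 in hSRY-OFF, a change of -1.94 (limma adjusted p = 0.00501). Of the 9 tested cardiac probes 3 were higher and 1 lower (44.4%, beside 26.9% of all tested probes). The part of the marker sums in the spread was not tested.

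Car9, Bnip3, Higd1a and Ero1l were detected on no array. Car9, the carbonic anhydrase that is among the most HIF-dependent of genes, had 3 probes with normalized values between 4.44 and 5.17, below the lowest detected value of any array. For these 4 genes, as for the further probes of Pfkp, Arnt and Egln3, no level and no change can be given.

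Related members were compared directly in 6 pairs, chosen after their values had been seen, by the difference between 2 probes within each array. The change of Hif1a differed from that of Epas1 by -0.85, that of P4ha2 from that of P4ha1 by 0.94, that of Slc2a1 from that of Ldha by 0.97, and that of Gapdh from that of Eno1 by 0.37. The groups did not overlap in these 4 differences, and each reached p = 0.1 in an exact two-sided permutation test (adjusted p = 0.15 over the 6 pairs), which is the smallest p that 3 arrays against 3 allow, so no pair could pass 0.05. Hif1a and Arnt differed in change by -0.23 (exact p = 0.6, adjusted p = 0.6), and Aldoc and Aldoa by 0.37 (exact p = 0.3, adjusted p = 0.36), both with overlapping groups.

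Other genes of sugar metabolism and of the oxygen response were taken as a list of 89, with 82 tested probes of 65 genes. Of these probes 19 were higher and 4 lower, 28.0% beside the 26.9% of the whole array, with a median change of 0.17. The largest rise was in Pdk4, the pyruvate dehydrogenase kinase induced in fasting. Pdk4 read 6.67, 6.89 and 6.93 in hSRY-OFF and 10.31, 11.08 and 8.95 in hSRY-ON, a rise of 3.29 (SE 0.48, 9.75-fold, adjusted p = 0.00480). Pcx, pyruvate carboxylase, which feeds pyruvate into the citric acid cycle, read 5.71, 5.0 and 5.39 against 6.90, 7.72 and 7.23, a rise of 1.92 (SE 0.26, adjusted p = 0.00352). Its value in hSRY-OFF replicate 2 lay below the lowest detected value of any array, 5.22. The size of the Pcx change thus rests on hSRY-OFF values at the edge of detection. Eno2, the neuronal enolase, rose by 1.40 (SE 0.16, adjusted p = 0.00205), from 6.32, 6.35 and 6.51 to 7.66, 8.08 and 7.63. These 3 genes stood apart on every array, while the members Pdk1 and Eno1 that catalyse the same steps as Pdk4 and Eno2 were not called.

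Of the 28 tested probes for other sugar metabolism 8 rose and 2 fell (35.7% called). Of the 13 for pyruvate and lactate handling 2 rose (15.4%), beside 26.9% called over all tested probes. Both dehydrogenases of the pentose phosphate pathway rose, G6pdx by 0.50 and Pgd by 0.62, as did liver-type glycogen phosphorylase, Pygl (2 probes, by 0.68 and 0.59), and Hk3, a hexokinase of white blood cells, by 1.15. Ldhd, the dehydrogenase of D-lactate, was detected on no hSRY-OFF array and on all hSRY-ON arrays, at least 1.35-fold higher. The insulin-responsive glucose transporter Slc2a4 (-0.60) and muscle glycogen phosphorylase, Pygm (-0.84), fell. Slc2a3, the GLUT3 transporter of neurons and white blood cells, changed by 0.37 (95% interval -0.24 to 0.99) and was not called, though it passed at 0.65 without hSRY-ON replicate 1 (adjusted p = 0.0446). The macrophage and neutrophil sums given above were higher in hSRY-ON, though the neutrophil genes Ngp and Camp were lower in its replicate 1. The part of these sums in the rise of Hk3 was not tested. Pdk4, Pcx, Eno2, Ldhd and Pgd kept their calls in each alternative setting that tested them, whereas Hk3, G6pdx, Pygl, Slc2a4 and Pygm each lost theirs when either of hSRY-OFF replicates 1 and 2 was left out, and in at least 1 other setting.

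In the HIF system outside the members, 1 of 8 tested probes rose and 1 fell (25% called, beside 26.9% of all tested probes). Hif3a, an alpha subunit some forms of which restrain HIF activity, was detected on no hSRY-OFF array (4.60, 4.64 and 4.51) and on all hSRY-ON arrays (6.21, 6.55 and 6.45), at least 2.15-fold higher (limma adjusted p = 0.000632). Tceb2, elongin B, a partner of the von Hippel-Lindau protein, was lower with a change of -0.50 (SE 0.14, adjusted p = 0.0359) and was not called without hSRY-OFF replicate 1, 2 or 3 or hSRY-ON replicate 2, with adjusted p up to 0.125 over all alternatives. Vhl itself was detected on no array.

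Among other hypoxia-responsive genes 8 of 33 tested probes rose and 1 fell (27.3% called, close to the 26.9% of all tested probes). Hmox1, haem oxygenase, which also rises with haem and oxidative stress, read 7.32, 7.47 and 7.65 in hSRY-OFF and 11.21, 9.66 and 9.28 in hSRY-ON, a rise of 2.56 (SE 0.46, 5.92-fold, adjusted p = 0.00895). Edn1, the vasoconstrictor endothelin made by endothelium and epithelium, read 10.15, 9.79 and 10.70 against 12.12, 12.44 and 11.49, a rise of 1.80 (SE 0.31, adjusted p = 0.00758). Lox, which crosslinks collagen and elastin, read 11.32, 11.61 and 11.52 against 13.06, 13.10 and 12.61, a rise of 1.44 (SE 0.17, adjusted p = 0.00241). These 3 genes were apart on every array and kept their calls in all 15 alternative settings. Ppp1r3c, a glycogen-targeting subunit of protein phosphatase 1, read 12.59, 12.52 and 12.54 against 11.46, 10.47 and 11.54, a change of -1.39 (SE 0.28, adjusted p = 0.0126) that was lost only without hSRY-OFF replicate 1 (adjusted p = 0.0518). Kdm3a (2 probes), Vldlr (1 probe), Plod1, another collagen-modifying enzyme, and Trf, transferrin, rose by 0.41 to 0.77. The smaller Kdm3a rise and those of Vldlr, Plod1 and Trf were not called without hSRY-OFF replicate 1, 2 or 3 or hSRY-ON replicate 2.

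Vegfa, the vascular growth factor that is the best known HIF target, was not called by either tested probe. The brighter one read 11.25, 11.47 and 11.28 against 11.44, 11.27 and 11.25, a change of -0.02 (95% interval -0.31 to 0.28). The other read 10.81, 11.02 and 10.85 against 11.26, 10.09 and 9.77, with hSRY-ON replicate 1 highest and replicate 3 lowest as in Ndrg1. Its change of -0.52 had an interval of -1.37 to 0.32, and passed at -0.96 without hSRY-ON replicate 1 (adjusted p = 0.00695). Over the whole list, the 23 calls became 11, 12, 13 and 12 without hSRY-OFF replicate 1, 2 or 3 or hSRY-ON replicate 2, and the 4 lower calls became 9 without hSRY-ON replicate 1.

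**Figure D4:**
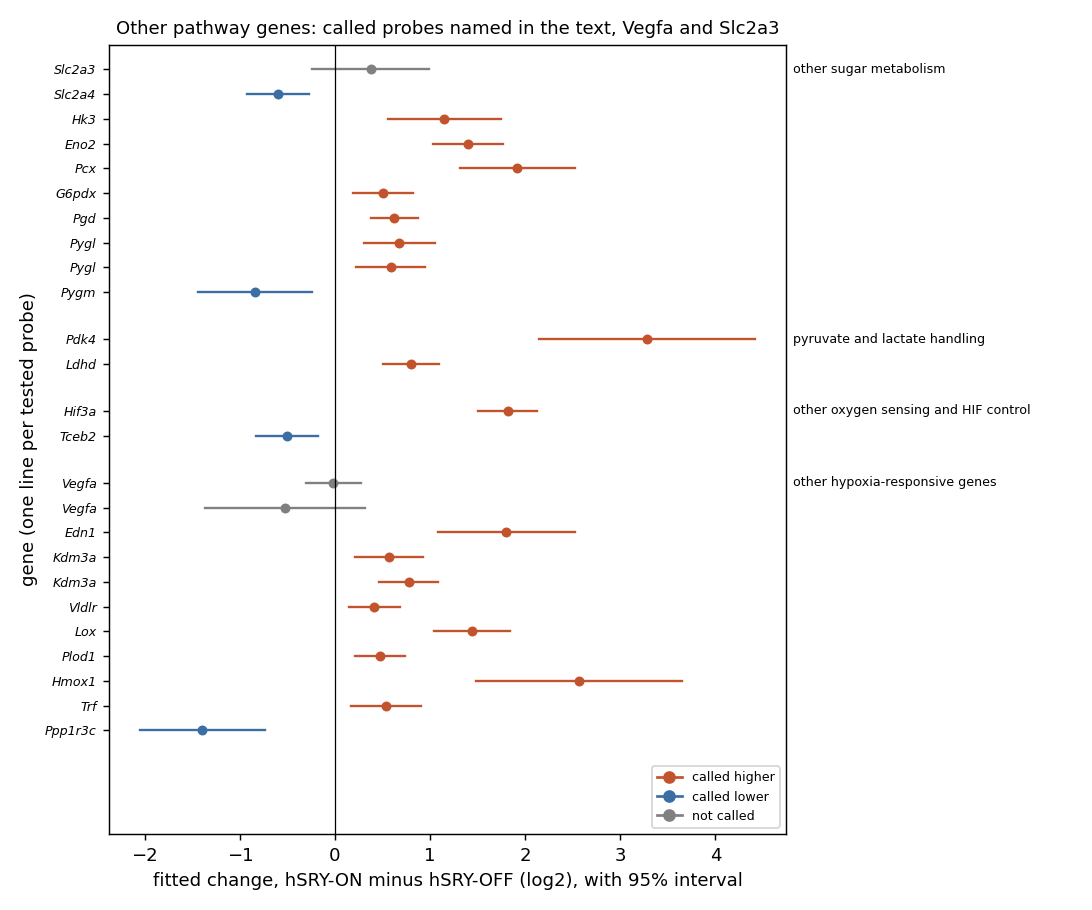
Fitted change, hSRY-ON minus hSRY-OFF on the log2 scale with its 95% interval, of the called probes named in the text among the other pathway genes, with Slc2a3 and Vegfa added as uncalled genes, 1 line per probe (n = 3 arrays per group). Probes that were not called are otherwise left out, so the plot shows the size of the called changes and not their share. Pdk4 and Hmox1 rose most and Ppp1r3c fell most.

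**Figure D5:**
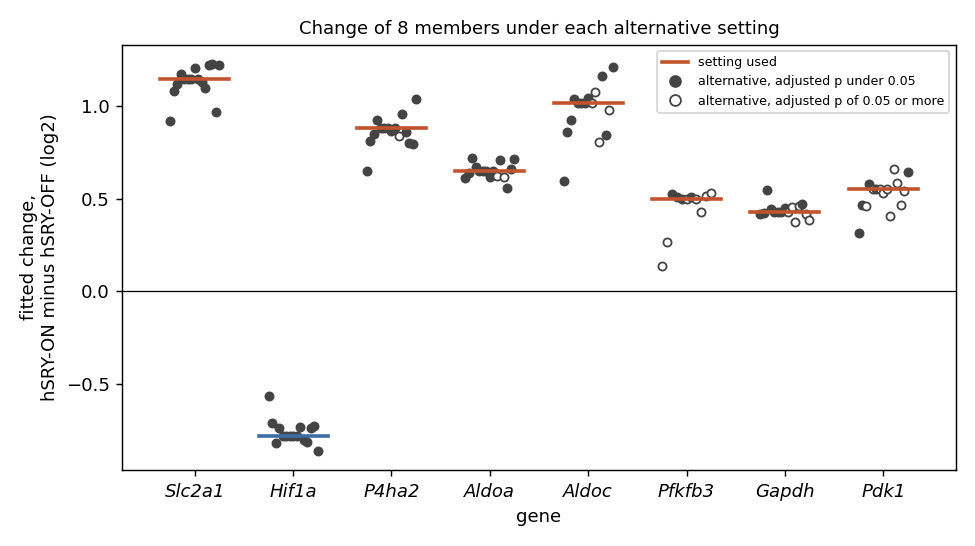
Fitted change of the 7 called members and Pdk1 under the setting used (line) and each alternative setting that tested the probe (points, filled where the adjusted p was under 0.05). Slc2a1 and Hif1a keep filled points throughout, whereas Gapdh has 9 of 15 and Pfkfb3 4 of 11.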

How the data were processed

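RNA from whole lung of 3 hSRY-OFF and 3 hSRY-ON mice was hybridised to Illumina MouseRef-8 v2.0 BeadChips. The authors deposited a table that holds, per probe and array, a linear intensity, neither background-corrected nor normalized, with array medians from 177 to 204. The authors also deposited a detection p-value, the share of negative control probes brighter than the probe. The software that summarised the beads is not given in the sources used here. The study's methods name TCC, a method for counts, and the submitters' processing notes name limma. Since the values are intensities, limma 3.58.1 in R 4.3.3 was used. Its function nec inferred the background from the detection p-values (offset 16), followed by quantile normalization between arrays and log2. Probes with detection p under 0.05 on at least 3 of 6 arrays (13841) were tested with lmFit and eBayes without covariates, adjusted by Benjamini-Hochberg, threshold 0.05. Quantile normalization removes any overall shift between groups, and the offset compresses changes of dim probes. Where no array of a group detected a probe, the fold is a bound: the mean of the detected group against that of the other, where each array counted at the probe's value or at its lowest detected value, whichever was greater. Each of several probes of a gene was kept, and the one with the highest mean leads.

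Groups and replicate numbers come from the sample labels. The members, the list of other pathway genes and the marker lists were chosen with earlier results of these data known. Values per array are given for members with a called probe and for Hif1a, Epas1 and Arnt, and the other pathway genes named with values are the 8 with the largest called change, with Vegfa, Vhl and Slc2a3. A called gene of this list is counted but not reported here. Values of other genes were added after they had been seen. Older symbols were matched through RefSeq synonyms. Same-numbered arrays did not deviate together (correlations of -0.11, 0.10 and -0.09), so numbers were not used as pairs, though this cannot exclude shared litters. The pipeline was tested on simulated data with known changes. Promoter windows are from RefSeq (GRCm38.p6), and only the 250 bases before the start were used. The alternatives were other background corrections, normalizations and filters, a variance trend, array weights, a replicate block and leaving out each array, and those of single other pathway genes were added after seeing the data. The table names no slides, so a slide block was not run. Precision is limited by the number of arrays.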

Additional observations from a re-analysis of the deposited data

How the results depend on the processing

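Slc2a1 and Hif1a kept their calls in all 15 alternatives, and P4ha2 in 14. The median member change stayed above 0 in each. The labels do not say whether replicate numbers pair these mice. A replicate block lowered the member calls from 7 to 4 and those higher from 6 to 3, while array weights gave 2 lower member calls. Leaving out 1 array at a time gave 1504 to 4384 calls over the array, 2 to 8 member calls (1 to 5 higher and 1 to 3 lower) and 11 to 24 calls among the other pathway genes (10 to 17 higher and 0 to 9 lower). The group then left with 2 arrays shares the spread of the other. In each case where a direction turned, the probe was called in neither fit. Median scaling turned the dimmer Pfkl probe to -0.017, the brighter to 0.030, the dimmest Tpi1 probe to -0.052 and the brighter Vegfa probe to 0.061, and cyclic loess turned that Vegfa probe to 0.016. Leave-one-out changes ran from -0.23 to 0.21 and from -0.15 to 0.026 for these Pfkl probes, from -0.10 to 0.032 for the brightest Pfkp probe, from -0.038 to 0.094 for that Tpi1 probe, from -0.11 to 0.18 for the brighter Epas1 probe, from -0.17 to 0.078 and from -0.25 to 0.017 for the brighter Egln1 probes, from -0.22 to 0.33 for Egln3, from -0.41 to 0.89 for Ankrd37, from -0.30 to 0.78 for Ndrg1, from -0.19 to 0.065 for P4ha1 and from -0.075 to 0.056 for the Vegfa probe. The cause was not tested. Dim probes such as that of Pfkfb3 are limited by their signal over background.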
